A study of Rattus norvegicus with 12 samples.

Results

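The genes examined were 6 textbook targets of the tumor suppressor p53 (Cdkn1a, Mdm2, Ccng1, Bax, Gadd45a and Btg2), the death receptor Fas, its ligand Faslg, and the death-associated protein gene Dap. They were followed in the livers of rats given A-998679 by mouth. Members were the probe sets that the platform annotation assigns to 1 of these symbols alone. This rule found 12 probe sets of 7 of the 9 genes, among 13643 named genes with a probe set of their own. The only probe set listed for Bax is shared with a second locus, so it was not counted, and Btg2 had no entry in the annotation table. Of the 7 genes measured, Mdm2 and Fas had 3 probe sets each and Cdkn1a had 2.

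All 12 animals were male Sprague Dawley rats, 3 in each of 4 groups, with 1 Affymetrix rat RAE230 2.0 array per liver. The vehicle rats received HPMC (0.2%, a cellulose thickener) by gavage, 10 ml/kg/day over 5 days. The other groups received A-998679 at 30, 100 or 200 mg/kg/day for the same 5 days, and every group was fasted overnight after the last dose. For the highest dose group the titles read 200 mg/kg and a second label field reads 300 mg/kg; the titles were followed. No age was stated for the animals, and no genetic model was involved. The study asked how the compound lowered its own exposure through enzymes controlled by the aryl hydrocarbon receptor, and it had no stated question on p53.

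In unstressed cells p53 is held low by the ubiquitin ligase encoded by Mdm2, itself a p53 target, so that the pair forms a feedback loop. After DNA damage and other stresses p53 accumulates and switches on genes that halt the cell cycle, assist repair or promote cell death. The death receptor pathway is a separate route to cell death, in which a ligand on a lymphocyte binds the receptor Fas on a target cell, and hepatocytes are known for their sensitivity to it. Dap encodes a small protein first found in a screen for mediators of interferon gamma induced death and later described as an inhibitor of autophagy.

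Values are log2 of the deposited intensity, so that a difference of 1 is a 2-fold change. A gene was called when the adjusted p of limma's moderated test (Benjamini-Hochberg over all probe sets tested in the comparison) was under 0.05. Of 26686 probe sets tested at 200 mg/kg against vehicle, 32 were called higher and 25 lower. Array medians lay between 5.21 and 5.26, and 12.0% to 12.5% of the values per array were empty. A level of 3.84, the 25th percentile of all values, is used as a floor below which a value is called dim. The hepatocyte markers fitted the tissue label: 5 of the 6 listed were measured, none was below the floor in every rat, and their summed intensity was 37829 to 40094 in the vehicle rats, 34987 to 39564 in the 30 mg/kg rats, 37683 to 40983 in the 100 mg/kg rats and 31102 to 38446 in the 200 mg/kg rats. At 200 mg/kg all 5 hepatocyte markers lay below vehicle, with a median log2 difference of -0.22. There 2 were lower at an unadjusted limma p under 0.05, where 4.38% of probe sets were, and 0 were called. At 100 mg/kg 3 lay above and 2 below vehicle, and at 30 mg/kg 1 lay above and 4 below. In whole liver, fewer cells of a type and less RNA per cell cannot be told apart.

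The 250 bases before the start given in the promoter table are shown for the members the results turn on, Dap and Ccng1, and for Cdkn1a, the classical p53 target. The sequences are from RefSeq, assembly GRCr8, and 8 of the 9 genes had an entry in the promoter table, Bax being without one. Capitals mark the core of the aryl hydrocarbon receptor element (GCGTG, or CACGC on the other strand) and matches to the p53 consensus decamer, both searched on both strands and read 5′ to 3′ along the gene. A single decamer is only part of a full p53 site.
Dap, chr2:83909863-83910112, plus strand: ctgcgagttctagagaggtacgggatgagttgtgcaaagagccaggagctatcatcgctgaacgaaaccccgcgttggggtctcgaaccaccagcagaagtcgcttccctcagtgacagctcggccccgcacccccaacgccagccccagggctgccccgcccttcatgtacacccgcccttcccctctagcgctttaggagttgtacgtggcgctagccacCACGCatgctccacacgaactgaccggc
Ccng1, chr10:25684877-25685126, minus strand: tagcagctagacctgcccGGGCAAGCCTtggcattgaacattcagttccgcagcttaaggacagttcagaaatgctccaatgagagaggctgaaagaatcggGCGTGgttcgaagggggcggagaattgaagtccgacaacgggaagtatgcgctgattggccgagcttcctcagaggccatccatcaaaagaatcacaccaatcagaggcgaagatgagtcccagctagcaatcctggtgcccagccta
Cdkn1a, chr20:7150682-7150931, plus strand: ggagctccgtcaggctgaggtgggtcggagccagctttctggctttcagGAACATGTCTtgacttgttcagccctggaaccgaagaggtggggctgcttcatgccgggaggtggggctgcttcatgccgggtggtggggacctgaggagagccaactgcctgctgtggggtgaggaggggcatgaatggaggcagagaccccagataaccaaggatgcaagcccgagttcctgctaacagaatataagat

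The Dap window held CACGC 28 bases before the start and no p53 decamer. The Ccng1 window held both motifs, GGGCAAGCCT at 232 bases and GCGTG at 148 bases before the start. The Cdkn1a window held GAACATGTCT at 201 bases before the start that the table gives, and it runs into the gene as annotated, whose first base is 7150820. Among the other members, Gadd45a held the p53 decamer GGGCTAGCCC at 48 bases, Fas held GCGTG at 73 bases, and Btg2 held CACGC at 96 bases. The Mdm2 and Faslg windows held no match; both lie wholly inside the gene as annotated, past its 5′ end, and so are not the bases before the gene. Of 33469 promoters of the same length, 25.9% held at least 1 GCGTG core and 6.64% at least 1 p53 decamer. These matches describe the letters only.

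Dap was the only member called in any comparison. Its log2 intensities were 10.14, 10.20 and 10.15 in the vehicle rats, 10.55, 10.38 and 10.49 in the 30 mg/kg rats, 10.49, 10.70 and 10.50 in the 100 mg/kg rats, and 10.98, 10.86 and 10.95 in the 200 mg/kg rats. All 9 treated rats lay above all 3 vehicle rats, and the 200 mg/kg rats lay above every other rat. The 30 and 100 mg/kg groups overlapped and did not differ beyond their spread.

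Dap rose 1.70-fold at 200 mg/kg against vehicle, a log2 difference of 0.77 (SE 0.083, 95% interval 0.59 to 0.94, limma adjusted p = 0.0021). Group means were 10.93 ± 0.064 at 200 mg/kg and 10.16 ± 0.032 in vehicle rats (SD, n = 3 each). Dap was thus 1 of 7 member genes called higher, where 0.12% of all probe sets were. No member was called lower, where 0.0937% of probe sets were. At 100 mg/kg the log2 difference from vehicle was 0.40 (95% interval 0.22 to 0.58, limma adjusted p = 0.29), and at 30 mg/kg it was 0.31 (0.13 to 0.49, limma adjusted p = 0.86), and neither passed. No member was called at these doses, against 0.0224% of probe sets called higher at 100 mg/kg and 0.00374% at 30 mg/kg. At an unadjusted limma p under 0.05, 3 of 7 members (Dap, Mdm2 and Ccng1) were higher at 200 mg/kg, where 4.43% of probe sets were. By the brightest probe set of each gene, 0 were lower there, where 4.38% were. On the same rule 2 members (Dap and Ccng1) were higher at 100 mg/kg, where 3.2% of probe sets were, and 1 (Dap) at 30 mg/kg, where 2.42% were. All these member counts read each gene by its brightest probe set, whereas the shares cover all probe sets tested. Members were chosen with earlier results of these data known, so the counts are a description only.

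Over all 3 doses together Dap rose by a log2 difference of 0.49 against vehicle (95% interval 0.34 to 0.64, limma adjusted p = 0.017), 1 of 7 member genes where 0.042% of probe sets were called higher. This call was lost when any 1 vehicle rat was left out, with limma adjusted p of 0.13 without vehicle rat 1, 0.075 without vehicle rat 2 and 0.091 without vehicle rat 3. It was also lost without a variance trend in limma (adjusted p = 0.32). The fitted slope of Dap was 0.34 log2 units per 100 mg/kg (95% interval 0.25 to 0.43, limma adjusted p = 0.0022), and Dap was the 1 member with a called slope, where 0.169% of probe sets had a called rise. The slope call was lost without the variance trend (limma adjusted p = 0.090). The slope is over the dose given, not over plasma exposure. Between doses Dap was 0.46 higher on the log2 scale at 200 than at 30 mg/kg (limma adjusted p = 0.084) and 0.37 higher at 200 than at 100 mg/kg (limma adjusted p = 0.54), so neither difference passed; 0.0187% of probe sets were called higher in the first of these comparisons and 0.0% in the second. The 200 mg/kg call held when any 1 of the 12 rats was dropped from the fit, with limma adjusted p from 0.0020 to 0.016. It was lost without the variance trend (limma adjusted p = 0.12) and in the methods' t-test after adjustment (adjusted p = 0.15).

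**Figure D1:**
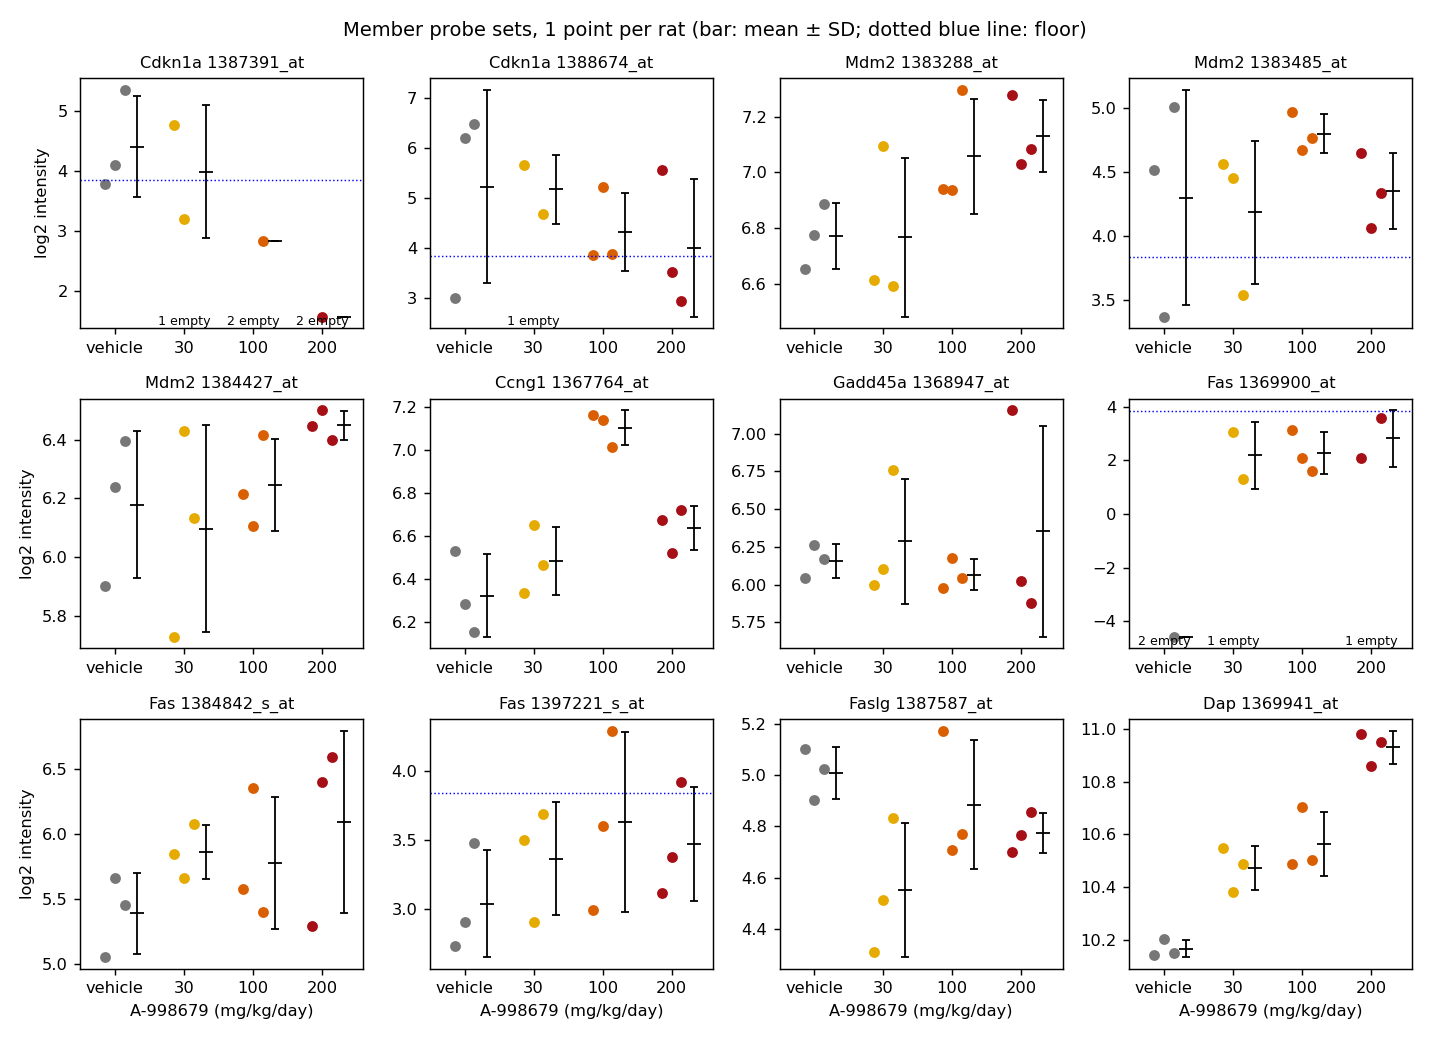
Log2 intensity (y axis) of the 12 member probe sets by dose of A-998679 in mg/kg/day (x axis), with 1 point per rat, the group mean and SD as a bar beside the points, and the floor of 3.84 as a dotted line where it falls in range. Dap separates all 3 vehicle rats, from 10.14 to 10.20, from the 3 rats at 200 mg/kg, from 10.86 to 10.98, and Ccng1 is highest at 100 mg/kg; a group with 1 value has no error bar.

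Ccng1 encodes cyclin G1, a p53 target that acts with Mdm2 in the feedback on p53. Its log2 intensities were 6.53, 6.28 and 6.15 in the vehicle rats, 6.33, 6.65 and 6.46 in the 30 mg/kg rats, 7.16, 7.14 and 7.01 in the 100 mg/kg rats, and 6.67, 6.52 and 6.72 in the 200 mg/kg rats. The 3 rats at 100 mg/kg lay above all 9 others, whereas the 200 mg/kg rats overlapped the vehicle rats.

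At 100 mg/kg the log2 difference of Ccng1 from vehicle was 0.78, or 1.72-fold (SE 0.14, 95% interval 0.48 to 1.09), which did not pass over all probe sets (limma adjusted p = 0.15, range 0.097 to 0.56 over the alternatives tried). The difference was 0.32 at 200 mg/kg (0.013 to 0.62, limma adjusted p = 0.54) and 0.16 at 30 mg/kg (-0.14 to 0.46, limma adjusted p = 0.97). Between doses the 200 mg/kg level was lower than the 100 mg/kg level by a log2 difference of -0.47 (95% interval -0.77 to -0.16, limma adjusted p = 0.69). The summed intensity of 6 markers of proliferating cells (Mki67, Top2a, Ccnb1, Cdk1, Birc5 and Aurkb) was likewise highest in the 100 mg/kg group, although only 3 of the 6 lay above vehicle there and 3 below, with a median log2 difference of 0.062. The sum was 125.6 to 129.7 in the vehicle rats, 84.8 to 120.8 in the 30 mg/kg rats, 146.9 to 169.0 in the 100 mg/kg rats and 113.5 to 135.0 in the 200 mg/kg rats. None of the 6 passed the test at any dose, and their part in the Ccng1 values was not tested.

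Mdm2, the ubiquitin ligase that restrains p53, was read by 3 probe sets, of which the brightest (1383288_at) stands for the gene. It gave log2 intensities of 6.65, 6.78 and 6.89 in the vehicle rats, 6.61, 7.10 and 6.59 in the 30 mg/kg rats, 6.94, 6.94 and 7.30 in the 100 mg/kg rats, and 7.28, 7.03 and 7.08 in the 200 mg/kg rats. The rats at 100 and 200 mg/kg lay above the vehicle rats, and the 30 mg/kg rats overlapped them. The log2 difference from vehicle was 0.36 at 200 mg/kg (95% interval 0.013 to 0.70, limma adjusted p = 0.54) and 0.29 at 100 mg/kg (-0.058 to 0.63, limma adjusted p = 0.87).

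The second Mdm2 probe set (1384427_at) also put the 3 rats at 200 mg/kg, at 6.45, 6.50 and 6.40, just above the vehicle rats, at 5.90, 6.24 and 6.39. Its log2 difference was 0.27 (95% interval -0.14 to 0.69, limma adjusted p = 0.76). The third and dimmest (1383485_at) overlapped at every dose, with 3.37 to 5.01 in the vehicle rats and 4.06 to 4.65 at 200 mg/kg, and a log2 difference of 0.051 (95% interval -0.89 to 0.99). The 3 probe sets therefore gave differences of unequal size, and no one of them passed.

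Cdkn1a encodes p21, the inhibitor of cyclin-dependent kinases that carries out the p53 cell cycle arrest. Its brighter probe set (1388674_at) gave log2 intensities of 2.99, 6.21 and 6.49 in the vehicle rats, 5.67, an empty value and 4.68 in the 30 mg/kg rats, 3.86, 5.23 and 3.87 in the 100 mg/kg rats, and 5.56, 3.52 and 2.93 in the 200 mg/kg rats. Both the highest value and one of the lowest came from vehicle rats, and 3 of the 11 values were below the floor. The log2 difference at 200 mg/kg was -1.23, with a 95% interval from -3.15 to 0.69 (limma adjusted p = 0.76), an interval too wide to show a direction. Leaving out 1 rat at a time gave -2.35 (without vehicle rat 1) to -0.60 (without vehicle rat 3).

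The dimmer Cdkn1a probe set (1387391_at) gave 3.77, 4.09 and 5.35 in the vehicle rats and 4.77, 3.20 and an empty value at 30 mg/kg. It had 1 value each at 100 mg/kg (2.82) and 200 mg/kg (1.57), both below the floor, with the other 2 rats of each group empty. No fold is given for it, since empty values were left out and no source used here states why they are empty.

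Gadd45a encodes a stress sensor that binds p21 and the replication clamp, and responds to p53 and to other stress signals. Its log2 intensities were 6.04, 6.26 and 6.17 in the vehicle rats, 5.99, 6.10 and 6.76 in the 30 mg/kg rats, 5.98, 6.18 and 6.04 in the 100 mg/kg rats, and 7.15, 6.03 and 5.87 in the 200 mg/kg rats. A single rat at 200 mg/kg stood above all others, and the groups overlapped at every dose. The log2 difference at 200 mg/kg was 0.19 (95% interval -0.43 to 0.82, limma adjusted p = 0.91), and it was -0.21 without 200 mg/kg rat 1.

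Fas encodes the death receptor itself, which is also a p53 target. Its brightest probe set (1384842_s_at) gave log2 intensities of 5.05, 5.66 and 5.45 in the vehicle rats, 5.84, 5.66 and 6.07 in the 30 mg/kg rats, 5.58, 6.35 and 5.40 in the 100 mg/kg rats, and 5.29, 6.40 and 6.59 in the 200 mg/kg rats. The 30 mg/kg rats lay barely above the vehicle rats, the lowest at 5.6586 against a highest vehicle value of 5.6583. At 200 mg/kg, 1 rat lay within the range of the vehicle rats. The log2 difference from vehicle was 0.47 at 30 mg/kg (limma adjusted p = 0.96), 0.39 at 100 mg/kg (limma adjusted p = 0.92) and 0.71 at 200 mg/kg (95% interval -0.015 to 1.43, limma adjusted p = 0.58). Leaving out 1 rat at a time gave 0.46 to 1.11 at 200 mg/kg.

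The other Fas probe sets were dim. One (1397221_s_at) ranged from 2.73 to 3.48 in the vehicle rats and from 3.11 to 3.92 at 200 mg/kg, with a log2 difference of 0.43 (95% interval -0.69 to 1.55). The other (1369900_at) was below the floor wherever it had a value. It had 1 vehicle value, -4.58, with 2 empty, against 2.08 and 3.57 with 1 empty at 200 mg/kg, so no fold is given.

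Faslg, the Fas ligand, is made mainly by T and natural killer lymphocytes. Its log2 intensities were 5.10, 4.90 and 5.02 in the vehicle rats, 4.31, 4.51 and 4.83 in the 30 mg/kg rats, 5.17, 4.71 and 4.77 in the 100 mg/kg rats, and 4.70, 4.77 and 4.86 in the 200 mg/kg rats. The rats at 30 and at 200 mg/kg lay below all vehicle rats, while those at 100 mg/kg overlapped them. The log2 difference from vehicle was -0.23 at 200 mg/kg (95% interval -0.79 to 0.32, limma adjusted p = 0.87) and -0.46 at 30 mg/kg (-1.01 to 0.10, limma adjusted p = 0.96), and neither passed. Of 10 lymphocyte markers listed, 9 were measured, 2 of them below the floor in every rat. Their summed intensity was 171.5 to 229.3 in the vehicle rats, 182.9 to 210.3 in the 30 mg/kg rats, 162.3 to 185.0 in the 100 mg/kg rats and 167.2 to 186.4 in the 200 mg/kg rats. None of the markers passed the test, and their part in the Faslg values was not tested.

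**Figure D2:**
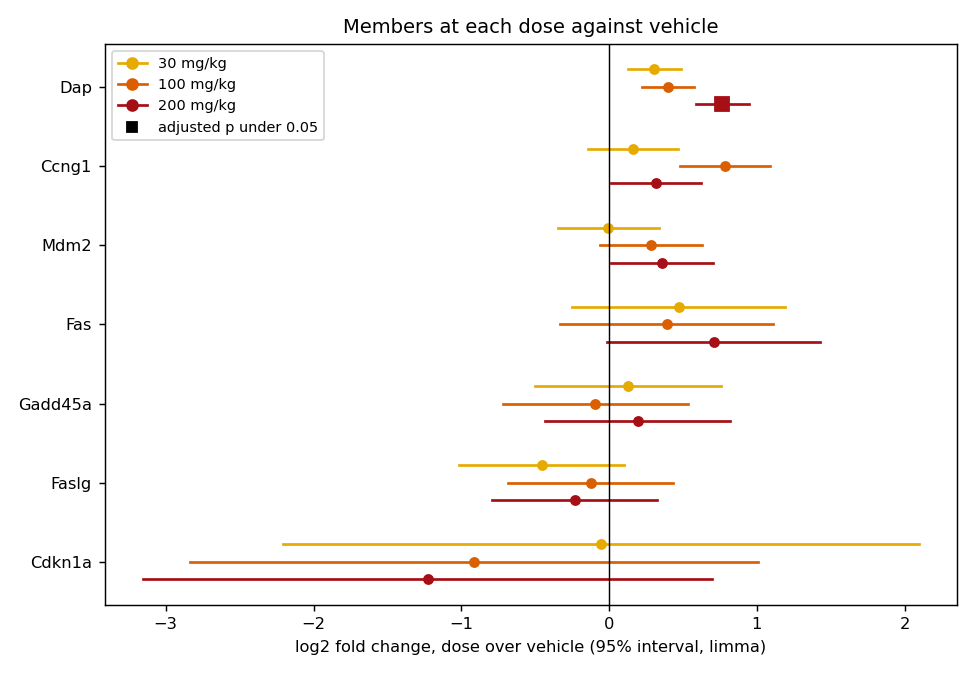
Log2 fold change over vehicle (x axis) at 30, 100 and 200 mg/kg for the 7 member genes (y axis), each by its brightest probe set, with 95% intervals from limma and squares for an adjusted p under 0.05. Only Dap at 200 mg/kg, at 0.77, is drawn as a square, and the interval of Cdkn1a at 200 mg/kg runs from -3.15 to 0.69.

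Groups that did not overlap were counted for the genes' brightest probe sets. At 30 mg/kg, 2 of 7 genes (Dap and Fas) lay wholly above vehicle and 1 (Faslg) wholly below, where 5.07% and 5.31% of the probe sets with all values did so. Fas was counted there on nearly equal values, 5.6586 in the lowest 30 mg/kg rat and 5.6583 in the highest vehicle rat. At 100 mg/kg, 3 genes (Dap, Mdm2 and Ccng1) lay wholly above, where 6.91% did. At 200 mg/kg, 2 genes (Dap and Mdm2) lay wholly above and 1 (Faslg) wholly below, where 7.97% and 7.3% did. Cdkn1a, with an empty value at 30 mg/kg, could not be counted there or over all doses. For all 9 treated rats together, Dap alone lay wholly above, where 0.683% of probe sets did. The median log2 difference of the 7 members at 200 mg/kg was 0.32, with 5 above 0, and that of 12847 named genes was 0.0057, with 50.7% above 0. These comparisons share the vehicle rats. Since the members were chosen with earlier results of these data known, the counts and medians are a description and no independent test of the set.

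Lists of related genes were read in the same fit. Of 106 genes on 7 lists, 104 were tested at 200 mg/kg and 0 were called; at an unadjusted p under 0.05 in limma, 5 were higher and 10 lower, where 4.43% and 4.38% of all probe sets were. The methods' t-test called 0 after adjustment. At 30 mg/kg 0 were called, with 7 higher and 4 lower at an unadjusted limma p under 0.05, where 2.42% and 2.74% of all probe sets were. At 100 mg/kg 0 were called, with 7 higher and 5 lower unadjusted, where 3.2% and 2.82% were. Over all doses 0 of 101 tested were called, with 7 higher and 8 lower unadjusted, where 4.01% and 2.77% were.

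Among p53 and its regulators, 0 of 10 genes tested passed at 200 mg/kg, with a median log2 difference of -0.14. Atr, a kinase that signals replication stress to p53, had 4.48 ± 0.052 at 200 mg/kg and 2.09 ± 1.88 in vehicle rats (log2, SD, n = 3 each), the vehicle mean being below the floor (limma adjusted p = 0.34). Usp7, a deubiquitinase that stabilizes Mdm2 and p53, had a log2 difference of -0.51 (limma adjusted p = 0.39). Rchy1, a further ubiquitin ligase of p53, had -0.25 (limma adjusted p = 0.60).

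Among the other p53 targets, 0 of 21 genes tested passed at 200 mg/kg, with a median of 0.083 and 12 of 21 above 0. The sestrins, stress proteins that restrain growth signaling, differed in sign: Sesn1 had a log2 difference of 0.53 (95% interval 0.087 to 0.97, limma adjusted p = 0.45) and Sesn2 one of -0.87 (-1.46 to -0.29, limma adjusted p = 0.31). Plk3, a stress-responsive kinase, was dim in vehicle rats (mean 1.98) and had a difference of 1.85 (limma adjusted p = 0.60). Relatives of the members were likewise not called, 0 of 13, and the antiproliferative genes Btg1, Tob1 and Tob2, of the family of Btg2, had differences of -0.21, -0.26 and -0.43 (limma adjusted p = 0.64, 0.72 and 0.67).

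Death receptor signalling had 0 of 18 genes called and a median of -0.14. Tnfsf10, the ligand TRAIL, had a log2 difference of 0.38 (limma adjusted p = 0.61), the caspase inhibitor Xiap had -0.42 (limma adjusted p = 0.55), and the executioner caspase Casp6 had -0.39 (limma adjusted p = 0.57). The BCL2 family and mitochondrial death list had 0 of 19 called and a median of -0.046. Its BH3-only genes Bcl2l11 (Bim) and Bmf had differences of -0.88 (limma adjusted p = 0.46) and -0.49 (limma adjusted p = 0.77), and the survival gene Mcl1 had -0.16 (limma adjusted p = 0.75). The Bcl2l11 value was 0.034 as the mean of the gene's probe sets, so its sign depended on the probe set read.

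Immediate early genes, which respond within minutes to many stimuli, had 0 of 14 called and a median of -0.29. Dusp1, a phosphatase that ends MAP kinase signals, had a difference of -1.08 (95% interval -1.60 to -0.55, limma adjusted p = 0.12), Ier2 had -1.08 (limma adjusted p = 0.40) and the nuclear receptor Nr4a1 had -0.56 (limma adjusted p = 0.61). Glucocorticoid and fasting responsive genes had 0 of 12 called and a median of 0.13. At an unadjusted limma p under 0.05, 3 of these 12 were higher and 3 lower, where 4.43% and 4.38% of all probe sets were. Sgk1, a kinase gene induced by glucocorticoids, had a difference of -1.43 (limma adjusted p = 0.11), and it passed without vehicle rat 3, at -1.93 (limma adjusted p = 0.0013). The coactivator gene Ppargc1a had a difference of 1.45 (limma adjusted p = 0.21). The lipase inhibitor gene Angptl4 had -1.03 (limma adjusted p = 0.16), and passed without 30 mg/kg rat 2 (limma adjusted p = 0.048).

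**Figure D3:**
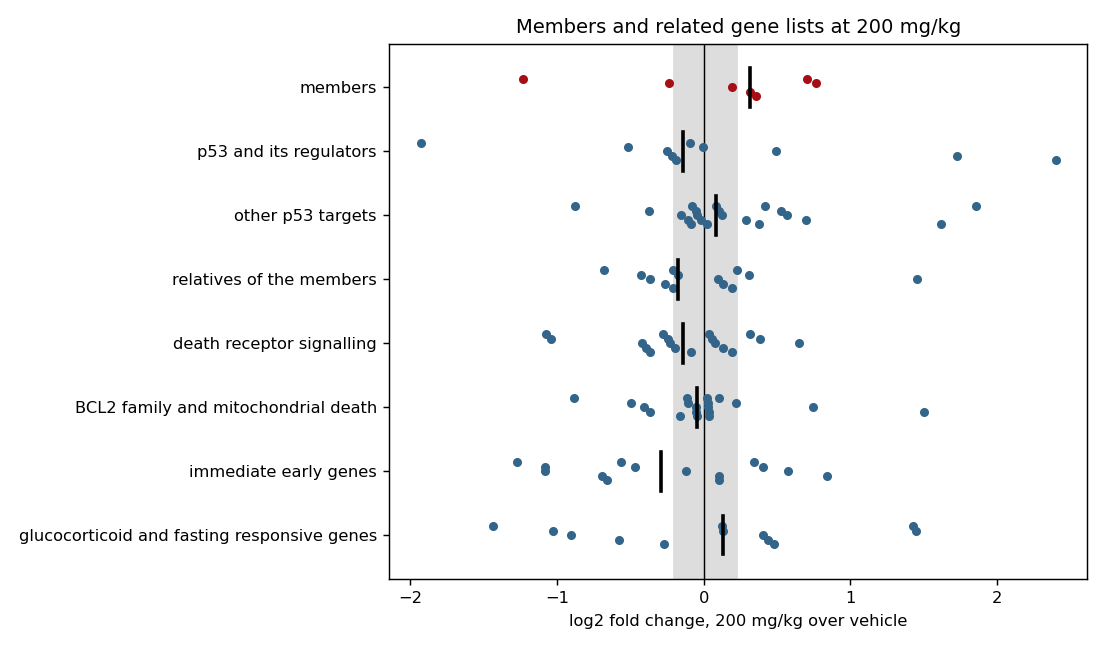
Log2 fold change at 200 mg/kg over vehicle (x axis), 1 point per gene, for the 7 members and the 7 related lists (y axis), with list medians as short bars, the median of all named genes as a vertical line and their quartiles, -0.20 to 0.23, as a gray band. The members' median is 0.32, and no gene of the other lists passed the test. Members and lists were chosen with earlier results of these data known.

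As a description of pattern, the 2 named genes most like each member were taken by Pearson correlation over the 12 rats, among 10841 genes with every value. The 12 rats include the 4 dose groups, so any genes that differ by dose share that. Each match was also picked as the highest of 10841 correlations over only 12 rats, a search that gives high r among unrelated genes too. The matches were not tested. Dap was most like Gsta3, a glutathione S-transferase gene (r = 0.94), and Kxd1 (r = 0.93). Gsta3 had log2 intensities of 4.34, 3.98 and 4.41 in the vehicle rats, 5.70, 5.52 and 6.36 in the 30 mg/kg rats, 7.77, 8.53 and 7.23 in the 100 mg/kg rats, and 9.49, 9.46 and 8.70 in the 200 mg/kg rats. The 4 groups of Gsta3 followed each other without overlap, whereas the 30 and 100 mg/kg groups of Dap overlapped.

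Gadd45a was most like Fgf21, a fasting and stress hormone gene of the liver (r = 0.93), and Iars1, a tRNA synthetase gene (r = 0.93). Fgf21 was at 9.24 in the 200 mg/kg rat with the high Gadd45a value and at 5.63 to 7.33 in the other 11 rats. Gadd45a itself was at 7.15 in that rat and at 5.87 to 6.76 in the others. The correlation was not computed without that rat. The closest matches were Kank3 for Ccng1 (r = 0.90), Sdr42e1 for Mdm2 (r = 0.89), Emc10 for Fas (r = 0.88) and Rtn4ip1 for Faslg (r = 0.90). Cdkn1a, with an empty value, was not matched.

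**Figure D4:**
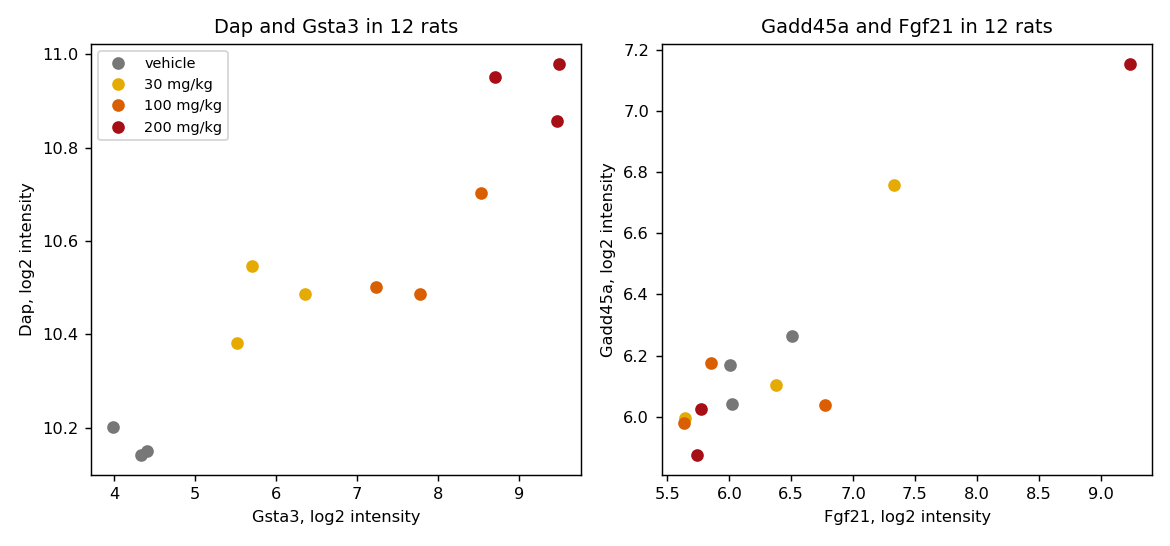
Log2 intensity of Dap (y axis) against Gsta3 (x axis), left, and of Gadd45a (y axis) against Fgf21 (x axis), right, 1 point per rat colored by group. Dap and Gsta3 are lowest in the 3 vehicle rats (Gsta3 up to 4.41) and highest at 200 mg/kg, whereas 1 rat at 200 mg/kg (Gadd45a 7.15, Fgf21 9.24) stands apart in the right panel.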

How the data were processed

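Liver RNA of 12 rats was measured on 1 array each. The authors deposited log10 intensities made with Rosetta Resolver; no source used here states its background correction, its scaling or why values are empty. The base was read from the values, whose highest is 4.03, or 10828 intensity units. A further deposited table holds the authors' own folds and was not used. Values were multiplied by 3.32 to give log2, and empty values were left out, so a fit uses the rats with a value. Array scans carry no read depth, and 3 rats per group limit the precision. Names came from the platform annotation, and the probe set with the highest mean stands for a gene.

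A model of all 4 group means was run in limma 3.58.1 and R 4.3.3 (variance trend, Benjamini-Hochberg, threshold 0.05), with a slope over dose. Nothing in the labels tells whether rats were processed together. The script was tested on simulated data, and figures were drawn with matplotlib 3.10.9. Named are all members, the 3 genes with the smallest p at 200 mg/kg in each list with any that passed, and the 2 genes most like each member. Members and lists were chosen with earlier results of these data known. Alternatives were 2 normalizations, removing dim probe sets, the floor, no variance trend, fitting 2 groups alone, a replicate block, averaged probe sets, the t-test that the methods name outside the array analysis (the methods' t-test), changed dose scales, and each rat omitted in turn.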

Additional observations from a re-analysis of the deposited data

How the results depend on the processing

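The call of Dap at 200 mg/kg against vehicle kept its direction in every alternative run and its side of the threshold in all but 2 of them. Member genes called at 200 mg/kg numbered 1, and 0 without the variance trend or in the methods' t-test after adjustment. Over all doses the count of 1 went to 0 without the trend and under the replicate block (0 to 1 with 1 rat left out), and for the slope it went to 0 without the trend. With the mean of a gene's probe sets 1 member (Dap, limma adjusted p = 0.047) was called at 200 against 30 mg/kg, where the count was 0. The methods name a t-test for their general statistics, not for the arrays. At an unadjusted p of at most 0.05 it called 2 members for 30 mg/kg (4.74% of all probe sets), 2 for 100 mg/kg (6.54%) and 3 for 200 mg/kg (8.07%) against vehicle, 1 for 200 against 30 mg/kg (6.35%), 2 for 200 against 100 mg/kg (5.6%) and 1 for 100 against 30 mg/kg (4.89%).

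Probe sets called over the whole table moved more. At 200 mg/kg the count of 57 became 18 with the floor, 3 without the trend, 26 with only the 2 groups in the fit, 1 in the methods' t-test after adjustment and 2002 before it (26 to 68 with 1 rat left out). At 100 mg/kg the count of 6 became 2 with the filter, under the block and with probe sets averaged, 0 without the trend, and 0 after and 1625 before adjustment in the t-test (1 to 9 with 1 rat left out). At 30 mg/kg the count of 2 became 4 with the floor, 1 with the filter, with 2 groups and with averaging, 0 without the trend and under the block, and 0 after and 1176 before adjustment in the t-test (0 to 4). Over all doses 16 became 6 with the floor, 1 without the trend, 4 under the block and 10 with averaging (5 to 19). For 200 against 30 mg/kg, 5 became 16 with quantile normalization, 11 with a common 75th percentile, 18 with the filter or averaging, 0 without the trend, 3 under the block, and 0 after and 1575 before adjustment in the t-test (3 to 14). For 200 against 100 mg/kg, 0 became 6 with the floor, 1 under the block, 1 with 2 groups and 1392 in the unadjusted t-test (0 to 4). For 100 against 30 mg/kg, 0 became 1 with the 75th percentile, 2 with the floor and 1213 in the unadjusted t-test (0 to 1). For the slope, 81 became 36 with the floor and 11 without the trend (33 to 79). The causes were not tested.

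Differences near 0 changed sign. At 30 mg/kg Mdm2 was -0.0049, and 0.0052 with the 75th percentile (-0.17 to 0.082 with 1 rat left out), and Cdkn1a was -0.055, and 0.18 under the replicate block (-1.17 to 0.57). Mdm2 1383485_at at 200 mg/kg was -0.11 with the floor (-0.42 to 0.41). A larger difference also changed sign: Bcl2l11 at 200 mg/kg was -0.88, and 0.034 with probe sets averaged. With 1 rat left out Gadd45a ranged from -0.21 to 0.43 for 200 mg/kg, -0.11 to 0.27 for 30 mg/kg, -0.058 to 0.16 over all doses and -0.14 to 0.16 for its slope, and the Faslg slope from -0.066 to 0.015. Of the other pathway genes, 0 to 1 were called at each dose and over all doses with 1 rat left out (Sgk1 without vehicle rat 3 in each, and Angptl4 at 200 mg/kg without 30 mg/kg rat 2).

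Correlations of deviations between rats of the same number were -0.074 to 0.076, and 6 of 12 rats matched best with their own number. These values showed no clear pairing by number, and they cannot tell whether rats were processed together. Under the replicate block Dap over all doses had a limma adjusted p of 0.061, and the block changed no other member call. Member probe sets at or below the median level dropped out under the filter, Cdkn1a had no averaged value, and the t-test and 2-group fits cover comparisons of 2 groups only.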
